A study of Mus musculus with 45 samples.

Results

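The response of C57BL/6J islets to a diet with 44% fat was measured in 16 of the 45 islet samples of the series, chosen by the strain named in each sample's label. All 16 came from wild-type C57BL/6J mice, and nothing beyond the diet is given as a treatment. They formed 4 groups of 4: control females, high-fat females, control males and high-fat males. The control diet held 10% fat with fiber and the other diet 44% fat with fiber, which the protocol also describes as high in sugar, so fat and sugar cannot be told apart here. Feeding began at 6 weeks of age and tissue was taken at 15 weeks. The remaining samples came from the same diets in CAST/EiJ (15) and NZO/HlLtJ (14) and enter the last comparison. No label says how many animals a sample holds, so the tests weigh differences against the spread between libraries, which may be technical in part.

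Islets are clusters of endocrine cells in the pancreas. Their beta cells secrete insulin, alpha cells glucagon and delta cells somatostatin. Beta cells of adult mice divide rarely, and a diet rich in fat and sugar is a classical stimulus of their replication and of islet growth in C57BL/6J mice. A dividing cell first loads and fires its replication origins with the MCM helicase, then enters mitosis with cyclins A and B on the kinase Cdk1, and parts its chromosomes with topoisomerase 2 alpha and mitotic kinesins such as Kif11. Inhibitors of the cyclin-dependent kinases act as brakes on this cycle.

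Total counts ran from 57203768 to 101988989 per library. Ins1 and Ins2, the insulin genes, lay between 24800 and 38100 and between 48200 and 80100 CPM (the usual depth-scaled count, with totals adjusted by the TMM method), and Gcg, the glucagon gene, between 12200 and 63200. The labels of sex matched: the X-inactivation transcript Xist was at most 1.55 CPM in males and at least 747 in females, and the Y-linked Ddx3y was at 0 in the females. Libraries differed most in RNA of acinar cells, the enzyme-secreting cells around islets. The 37 acinar genes took from 0.353% of counts in high-fat female 1 to 42.4% in control female 4, with control female 3 (21.8%) and high-fat male 1 (24.9%) the other libraries over 20%. By group the share was 5.48% to 42.4% in control females, 0.353% to 19.5% in high-fat females, 3.38% to 13.7% in control males and 4.03% to 24.9% in high-fat males. High-fat male 2 stood apart in lymphocyte genes, with a summed level of 79.6 CPM over 16 genes against at most 31.9 in the other libraries. In bulk tissue, fewer cells of a type and less RNA per cell cannot be told apart.

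The response of C57BL/6J islets was small, and genes of cell division stood out among the gene lists compared. The lists were chosen with earlier results of these data known, so their counts are descriptive and no list was tested. Division genes were also high in the same libraries, so their count does not stand for separate observations. Of 102 measured genes in 3 lists (mitosis, cyclins with their kinases, DNA replication), 59 were higher on the high-fat diet at an unadjusted p under 0.05 and 0 were lower, with a median log2 fold change of 0.39. Over all 18557 genes tested the matching shares were 4.65% higher and 2.58% lower, with a median of 0.00. None of these genes passed an adjusted p of 0.05: with the edgeR quasi-likelihood test and Benjamini-Hochberg adjustment the count of called genes was 0 (0% of the genes tested), and the lowest adjusted p was 0.064, for Kif11. At an unadjusted p under 0.05 there were 1340 genes. DESeq2 called 56 genes in the same 16 samples, 41 higher (0.221%) and 15 lower (0.0808%), and 14 of the 56 were in the division lists. The 56 include Ly6d, Gm26635 and Igha, named after their values were seen, with extreme log2 fold changes of 10.6, -11.4 and 10.8. Their edgeR adjusted p-values were 0.615, 0.566 and 0.716. limma-voom with sample quality weights called 1 gene, Kif11.

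Calls also differed in a fit of all 45 samples, which shares the estimate of spread and also changes the genes kept, the scaling and the design. There edgeR called 9 genes for C57BL/6J, all higher (0.0443% of 20306 genes, against 0% lower). They included Kif11, Top2a, Pbk, Ccnb2, Dsn1, Hpgds, Rasd2 and Mc5r, of which Dsn1 and Mc5r are named after their values were seen. Dsn1 encodes a kinetochore subunit, and Kif11, Top2a, Pbk and Ccnb2 also act in division. Without high-fat male 3, whose division genes were the lowest of its group, the 16-sample fit called 3 genes (Kif11, Pbk and Cdkn2c), and without high-fat male 1 it called 1 (Hpgds).

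The promoters of 5 division genes whose values follow are shown because the genes were high in the same libraries. The 200 bases before each RefSeq start (GRCm38.p6) are given 5′ to 3′ on the gene's strand. Capitals mark TTTGAA or TTCGAA, the core of the cell cycle genes homology region (CHR) known from promoters active before mitosis, and CCAAT, the box bound by NF-Y, each on either strand. Kif11 lies at chr19:37376182-37376381 (+), Top2a at chr11:99024190-99024389 (-), Ccnb2 at chr9:70421555-70421754 (-), Cdk1 at chr10:69352913-69353112 (-) and Mki67 at chr7:135716380-135716579 (-).
Kif11: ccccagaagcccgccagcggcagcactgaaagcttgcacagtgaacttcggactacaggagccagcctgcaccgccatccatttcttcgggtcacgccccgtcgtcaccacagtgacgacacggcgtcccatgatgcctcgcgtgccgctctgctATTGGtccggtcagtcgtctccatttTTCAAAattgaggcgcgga
Top2a: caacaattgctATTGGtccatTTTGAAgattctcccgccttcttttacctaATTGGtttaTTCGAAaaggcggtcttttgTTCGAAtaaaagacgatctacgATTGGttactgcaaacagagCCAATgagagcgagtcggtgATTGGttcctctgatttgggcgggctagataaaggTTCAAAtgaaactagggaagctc
Ccnb2: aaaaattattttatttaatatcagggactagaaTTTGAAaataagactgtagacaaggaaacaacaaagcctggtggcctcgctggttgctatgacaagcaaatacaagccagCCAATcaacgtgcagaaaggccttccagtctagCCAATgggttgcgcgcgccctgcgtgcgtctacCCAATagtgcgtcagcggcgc
Cdk1: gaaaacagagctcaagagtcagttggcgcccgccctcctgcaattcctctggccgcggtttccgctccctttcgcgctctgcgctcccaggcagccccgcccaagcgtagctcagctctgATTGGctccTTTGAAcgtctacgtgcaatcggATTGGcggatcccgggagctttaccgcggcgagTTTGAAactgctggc
Mki67: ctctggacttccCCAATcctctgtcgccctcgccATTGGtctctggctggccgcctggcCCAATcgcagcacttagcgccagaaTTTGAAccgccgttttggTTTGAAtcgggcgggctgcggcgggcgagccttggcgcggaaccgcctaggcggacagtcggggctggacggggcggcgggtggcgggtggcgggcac
In these stretches Kif11 had 1 CHR and 1 CCAAT match, Top2a 4 and 5, Ccnb2 1 and 3, Cdk1 2 and 2, and Mki67 2 and 3. Over the 250 bases before the start, a CHR match was found in 17 of the 42 mitosis genes with a promoter in the table (40.5%), in 7 of 19 cyclin and kinase genes (36.8%) and in 5 of 23 replication genes (21.7%), against 14.8% of the 12276 tested genes with a promoter and 19.6% of all 27025. Both motifs were present in 35.7%, 36.8% and 17.4% of the 3 lists, against 5.65% of tested genes and 7.0% of all. A match describes letters and not binding.

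Of the 3 division lists, mitosis had the largest share of higher genes. Of 49 measured, 40 were higher at an unadjusted p under 0.05 and 0 lower, with a median of 0.65 (range -0.02 to 1.18) and a positive value in 48. Kif11, the kinesin that pushes spindle poles apart (chromosome 19, 37376403 to 37421859, GRCm38), measured 1.97, 1.40, 1.47 and 1.33 CPM in control females 1 to 4 and 2.29, 2.31, 2.58 and 2.02 in high-fat females 1 to 4. The male values were 1.07, 1.57, 1.17 and 1.22 on the control and 3.93, 3.45, 2.17 and 3.85 on the high-fat diet. The 8 high-fat libraries all lay above the 8 control libraries, which held for 2 of the genes tested, Kif11 and Dsn1. Its log2 fold change was 0.99 ± 0.13 (SE, 16 samples; edgeR adjusted p = 0.064).

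Top2a, the topoisomerase that untangles chromosomes before they part, measured 6.14, 3.66, 3.87 and 4.13 CPM in control females and 5.66, 6.80, 7.94 and 5.13 in high-fat females. Male libraries measured 3.25, 5.74, 2.99 and 3.76 against 12.1, 8.61, 6.02 and 11.9. The diets overlapped in females through control female 1 and did not overlap in males, and the log2 fold change was 0.91 ± 0.17 (edgeR adjusted p = 0.236). Mki67, the standard marker of cycling cells, measured 8.54, 4.59, 7.27 and 6.94 CPM in control and 7.52, 10.7, 11.2 and 7.63 in high-fat females. In males its values were 4.05, 9.06, 4.64 and 6.97 against 21.9, 14.9, 8.49 and 18.2. The diets overlapped in females, high-fat male 3 lay within the control range, and the log2 fold change was 0.89 ± 0.21 (edgeR adjusted p = 0.371).

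Cenpf, a kinetochore protein made in late cycle, measured 3.29, 2.05, 2.54 and 2.43 CPM in control and 2.55, 3.70, 4.17 and 3.17 in high-fat females, and 1.81, 3.49, 1.84 and 2.30 against 7.50, 5.04, 3.6 and 6.66 in males. The diets overlapped in females and were apart in males by a narrow gap (log2 fold change 0.83 ± 0.18, edgeR adjusted p = 0.334). Other mitosis genes ranged widely in size. The largest log2 fold changes were those of Ckap2l, a spindle protein, at 1.18 ± 0.25 and Pbk, a mitotic kinase, at 1.18 ± 0.21. Kif4, a chromosome-bound kinesin, stood at 0.98 ± 0.22, Kif22, another, at 0.60 ± 0.13, Prc1, which bundles the central spindle, at 0.55 ± 0.13, and Bub1b, a checkpoint kinase, at 0.54 ± 0.12. Parts of Prc1, Kif4 and Pbk share sequence with a neighbouring gene or a pseudogene (12.5%, 15.7% and 13% of their 31-base words).

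**Figure D1:**
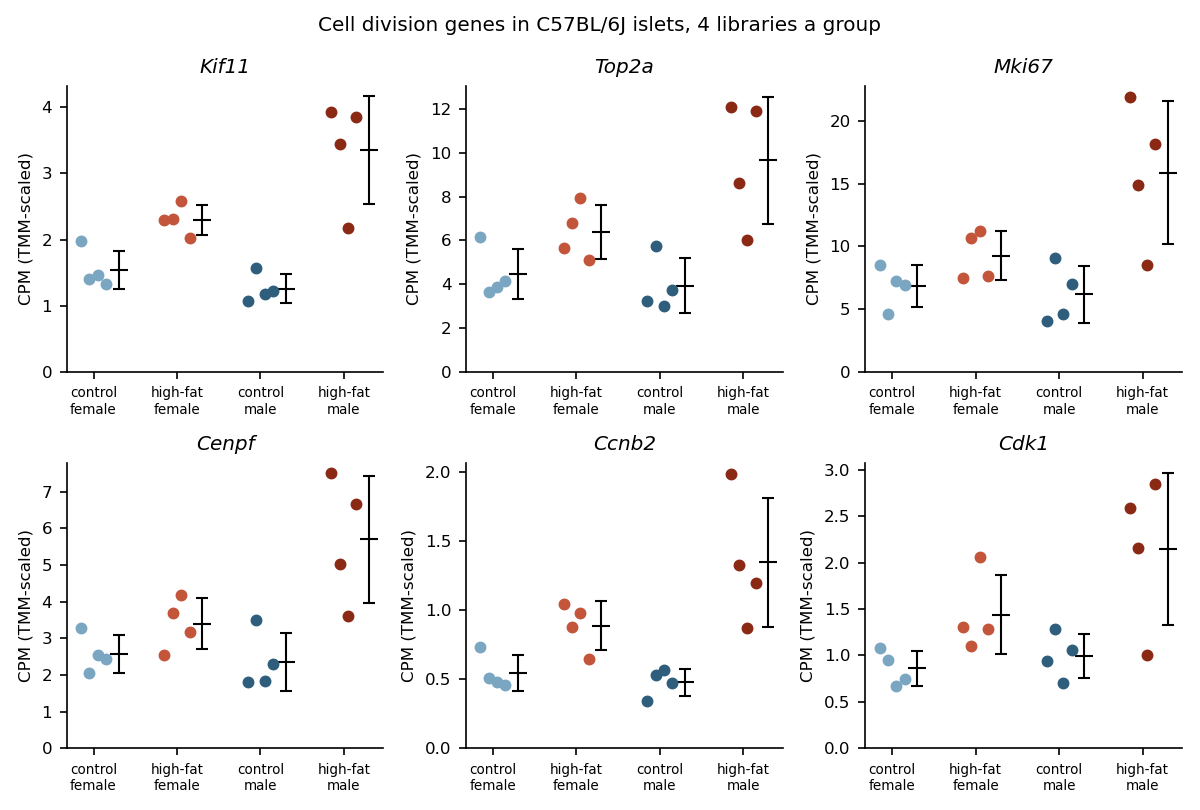
CPM of 6 division genes (y axes, from 0) in each of the 16 libraries (points) by sex and diet, with the group mean and SD beside them. High-fat males hold the highest values of each gene, and Kif11 is the only one of the 6 in which no high-fat library falls to the control range.

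Of 25 cyclin, kinase and cell cycle transcription factor genes, 11 were higher at an unadjusted p under 0.05 and 0 lower, with a median of 0.24. Those of the mitotic phase led. Ccnb2, a B-type cyclin that activates Cdk1, measured 0.737, 0.512, 0.480 and 0.456 CPM in control and 1.05, 0.878, 0.982 and 0.646 in high-fat females. In males the values were 0.342, 0.530, 0.566 and 0.475 against 1.99, 1.33, 0.875 and 1.20. Only high-fat female 4 lay below the highest control library of its sex (log2 fold change 1.07 ± 0.18, edgeR adjusted p = 0.188).

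Cdk1, the kinase that drives entry into mitosis, measured 1.08, 0.949, 0.675 and 0.742 CPM in control and 1.31, 1.10, 2.06 and 1.28 in high-fat females, which did not overlap. Males gave 0.942, 1.28, 0.708 and 1.06 against 2.59, 2.16, 1.00 and 2.84, with high-fat male 3 inside the control range (log2 fold change 0.92 ± 0.21, edgeR adjusted p = 0.371). Ccna2, cyclin A2, was at 0.58 ± 0.15, Ccnf, cyclin F, at 0.73 ± 0.21, and Foxm1, a transcription factor of mitotic genes, at 0.55 ± 0.17. E2f1, an activator of S-phase genes, was at 0.25 ± 0.08 and E2f8, a repressor of the same family, at 0.78 ± 0.25. Cks2, a Cdk1 partner, was at 0.66 ± 0.24, and 31.7% of its 31-base words are shared with other genes.

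The D-type cyclins and Cdk4 had values near 0. Ccnd2, the main D-type cyclin of beta cells, had a log2 fold change of 0.02 ± 0.10, Ccnd1 of -0.13 ± 0.14 and their partner kinase Cdk4 of -0.01 ± 0.05, and the diets overlapped in each sex. For Ccnd2 and Cdk4 the sign turned in other settings. Antisense transcripts cover 23.4% of Ccnd1 exons and 19.7% of Cdk4 exons. Ccne1, the cyclin E1 gene of entry into S phase, named after its value was seen, was at 0.30 ± 0.17 over both sexes and 0.63 ± 0.24 in males. Ccnd2 lay between 948 and 1460 CPM over all 16 libraries.

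Replication genes were mixed. Of 28, 8 were higher at an unadjusted p under 0.05 and 0 lower, with a median of 0.12. Mcm5, a helicase subunit, measured 3.32, 3.01, 3.04 and 3.04 CPM in control and 3.30, 3.69, 4.01 and 3.31 in high-fat females, and 2.77, 2.84, 2.65 and 2.89 against 3.91, 4.05, 3.08 and 5.19 in males. The diets met in females and were apart in males (log2 fold change 0.37 ± 0.10, edgeR adjusted p = 0.447). Another subunit, Mcm6, was at -0.01 ± 0.06, with a sign that turned without 1 of 3 libraries, and Mcm3 at 0.31 ± 0.12. Pole, the leading-strand polymerase, was at 0.67 ± 0.19, Gins1, a helicase cofactor, at 0.59 ± 0.24, Uhrf1, which maintains DNA methylation, at 0.58 ± 0.21 and Tyms, which makes thymidylate, at 0.18 ± 0.06. Uhrf1 shares 24.2% of its 31-base words with other genes.

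Brakes of the cycle were in part higher as well. Of 19 genes, 4 (21.1%) were higher and 1 (5.26%) lower at an unadjusted p under 0.05, with a median of 0.02. The shares over all genes were 4.65% and 2.58%. Cdkn2c, which encodes p18, an inhibitor of Cdk4 and Cdk6, measured 7.42, 5.62, 6.88 and 5.57 CPM in control and 8.54, 7.01, 9.35 and 7.20 in high-fat females. In the male libraries it stood at 6.62, 6.27, 6.28 and 5.78 against 11.3, 12.6, 6.34 and 11.4, with high-fat male 3 again at the control level (log2 fold change 0.53 ± 0.11, edgeR adjusted p = 0.334). Cdkn1a, which encodes p21, measured 19.1, 23.6, 28.4 and 28.9 CPM in control and 23.2, 28.4, 34.3 and 25.9 in high-fat females, and 19.1, 23, 29.6 and 19.3 against 40.9, 52.7, 22 and 34.2 in males. It overlapped in each sex, at 0.43 ± 0.15 (edgeR adjusted p = 0.562). The others were Cdkn3, a phosphatase acting on Cdk1, at 1.07 ± 0.46, Gadd45b, a stress-induced gene named after its value was seen, at 0.37 ± 0.17, and Cdkn1c, which encodes p57, at -0.37 ± 0.12. Antisense transcripts cover 30.7% of Cdkn1c exons. Cdkn3 was barely measured, between 0.0196 and 0.365 CPM over the libraries, and overlapped in each sex.

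The diet difference in each sex was taken from the same fit of 16 samples, so the sexes share its estimate of spread. In males 62 of the 102 division genes were higher at an unadjusted p under 0.05 and 0 lower, with a median of 0.63, against 5.22% higher and 2.06% lower of all genes. In females 9 were higher and 1 (Cdk6, named after its value was seen) lower, with a median of 0.17, against 2.16% and 3.34%. The mitosis list had medians of 0.97 in males and 0.38 in females. No gene passed the adjusted threshold with edgeR in females (0%) or in males (0%), where 1021 and 1351 genes had an unadjusted p under 0.05. DESeq2 called 6 and 84 genes, and limma-voom 0 and 6. Kif11 had a log2 fold change of 1.40 ± 0.19 in males (edgeR adjusted p = 0.0687) and 0.58 ± 0.19 in females (edgeR adjusted p = 0.901). Without high-fat male 3 edgeR called 2 genes in males, and without high-fat male 1 it called 1 in females.

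All 4 high-fat libraries lay above all 4 control libraries for 20 of the 102 division genes in males, against 1.68% of all genes, and for 6 in females, against 0.954%. In both sexes at once this held for Kif11 and Ccnf, and for 0.0431% of all genes (8). Those 8 also include Dsn1, Hells, a chromatin remodeller of dividing cells, Mxd3, a Myc-network repressor, and Clk3, Sirpb1a and 1110019D14Rik, all named after their values were seen. The reverse, with all high-fat libraries lower in both sexes, held for 0.0108% of genes (2: Ppp1r16a and Slc25a28, named likewise).

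The difference between the sexes was tested as an interaction. No gene passed with edgeR (0%; lowest adjusted p = 0.505), 1100 had an unadjusted p under 0.05, DESeq2 called 67 and limma-voom 0. Of the division genes, 14 had a larger value in males at an unadjusted p under 0.05 and 0 a larger value in females, against 4.45% and 1.48% of all genes. Pole differed by 1.35 ± 0.38 and Kif11 by 0.82 ± 0.27. This count moved with the male libraries: it was 33 without high-fat male 3, 8 without high-fat male 1 and 7 without high-fat male 4.

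Sample identifiers fall into 3 ranges of numbers, which the fit carries as a term and which are balanced over diet within each sex of C57BL/6J. Of the 18557 genes tested, 1819 differed between ranges at an edgeR adjusted p under 0.05. Diet gave 0 such genes and sex on the control diet 16. The labels do not say what the ranges mark. The difference between diets was computed within each of the 6 combinations of sex and range, as the mean over the 102 genes of log2(CPM + 0.5). It was -0.02, 0.25 and 0.10 in females of ranges 1, 2 and 3, and 0.69, 0.25 and 0.39 in males. In 5 of the 6 this mean was thus higher on the high-fat diet, and the exception was the comparison of high-fat female 1 with control female 1. Females of ranges 1 and 3 and males of ranges 1 and 2 had only 1 library per diet. The 0.10 of females of range 3 was below the SD of 0.14 between libraries of a group. Of the division genes 20 were higher in all 6 combinations, against 2.67% of all genes.

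**Figure D2:**
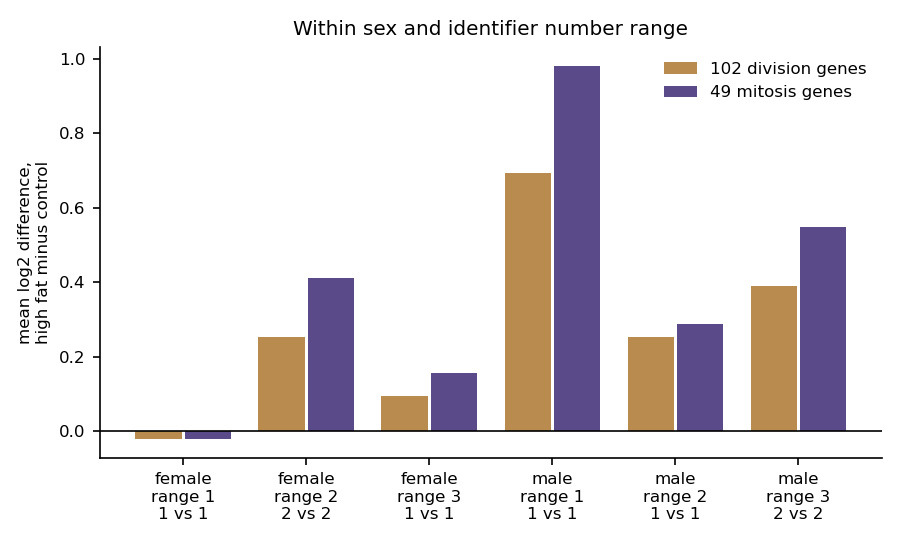
Mean log2 difference between high-fat and control libraries (y axis) over the division and the mitosis genes, for each sex and identifier number range, with the number of high-fat and control libraries under each pair of bars. The bars are positive except in females of range 1, where both stand at -0.02, and are tallest in males of range 1, at 0.69 and 0.98.

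RNA of other cells was set beside the division genes. The mean log2 level of the 102 genes was 1.63 to 1.89 in control females, 1.82 to 1.99 in high-fat females, 1.55 to 1.80 in control males and 1.79 to 2.28 in high-fat males. Summed macrophage genes (19, none at 0 throughout) were at 340.1 to 425.5, 285.3 to 437, 296.5 to 416.8 and 365.8 to 465.9 CPM in the same order. Summed fibroblast and stellate genes (19) were at 648.7 to 982.1, 570.4 to 699.9, 435.9 to 668.9 and 457.5 to 905.6 CPM, and endothelial genes (15) at 975.9 to 1061, 853.5 to 988.6, 710.3 to 944.5 and 805.1 to 1157 CPM. Lymphocyte genes (16) were at 18.9 to 31.9, 12.6 to 16.2, 11.7 to 15.3 and 14.9 to 79.6 CPM, with the B cell marker Ms4a1 at 0 in 3 libraries and the T cell marker Cd3e in 5.

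With the acinar score as a covariate 60 of the 102 division genes were higher at an unadjusted p under 0.05. When high-fat male 2, the library rich in lymphocyte RNA, was left out, 58 were. Without the 3 libraries over 20% acinar counts, a choice made after the values were seen that leaves 2 control females, 38 were, with a median of 0.38. There the count was 49 in males and 0 in females, while the female median was 0.18 against 0.17 with all 16 libraries. Which cells carried the division transcripts cannot be told from whole islets.

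Outside the division lists, the genes with the smallest p-values that were high in both sexes had varied roles. Hpgds, which makes prostaglandin D2, measured 9.90, 8.95, 7.84 and 9.43 CPM in control females and 14.7, 14.1, 13.4 and 14.3 in high-fat females, which were well apart. In males it measured 12.1, 9.63, 10.7 and 11.2 against 9.86, 13.5, 16.2 and 15.2, with high-fat male 1 inside the control range. Its log2 fold change was 0.49 ± 0.08 (edgeR adjusted p = 0.188).

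Inhbb, the beta B subunit of activin and inhibin, measured 3.93, 4.77, 5.6 and 3.90 CPM in control and 6.05, 5.17, 4.95 and 5.54 in high-fat females, which overlapped. The male values were 5.35, 4.06, 3.57 and 4.11 against 9.71, 8.83, 5.45 and 6.78, with each high-fat library above the controls (log2 fold change 0.55 ± 0.11, edgeR adjusted p = 0.255). Rasd2, a small GTPase also called Rhes, measured 4.07, 5.68, 9.17 and 3.68 against 12.6, 8.17, 9.58 and 7.71 CPM in females and 7.60, 5.59, 5.29 and 4.48 against 11.4, 14.2, 6.37 and 11.3 in males. A single library bridged the diets in each sex, control female 3 and high-fat male 3, and the log2 fold change was 0.84 ± 0.17 (edgeR adjusted p = 0.258).

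Pdyn, the precursor of dynorphin opioid peptides, had the widest spread of this set. It measured 57.9, 82.5, 24.3 and 43.7 CPM in control and 166, 59.5, 107 and 76.4 in high-fat females. Male libraries measured 83.3, 60.9, 82.2 and 92.4 against 142, 233, 111 and 264, where the diets did not overlap (log2 fold change 1.10 ± 0.26, edgeR adjusted p = 0.391). Cd274, which encodes the immune checkpoint ligand PD-L1, was at 0.21 ± 0.05, and Slfn9, a Schlafen family gene, at 0.74 ± 0.18. Slfn9 shares 24.6% of its 31-base words with other genes.

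Genes lower on the high-fat diet had small differences. Tmem255a, a membrane protein gene, measured 33.8, 33.7, 34.5 and 24.7 CPM in control and 21.1, 25.2, 29.5 and 21.8 in high-fat females. In males the values were 49.7, 42.7, 43.2 and 41.4 against 34.1, 40.6, 31.3 and 36.1. Only control female 4, the library richest in acinar RNA, fell among the high-fat values (log2 fold change -0.35 ± 0.07, edgeR adjusted p = 0.255). Creb3l1, a membrane-bound transcription factor of the secretory pathway, measured 59.3, 63.1, 71.3 and 58.4 against 49.5, 56.9, 64.5 and 42.9 CPM in females and 69.9, 78.3, 62.5 and 57.3 against 57.8, 65.6, 47.7 and 55.7 in males. It was lower in each of the 6 combinations of sex and range although the diets overlapped (log2 fold change -0.24 ± 0.05, edgeR adjusted p = 0.288).

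Csf1, the macrophage growth factor, was at -0.34 ± 0.07, Llgl2, a cell polarity protein, at -0.25 ± 0.06, Vasn, which binds TGF-beta, at -0.34 ± 0.08, and Fam222a at -0.26 ± 0.05. Tmcc3, Tpst2, Lrfn3 and Fgf12, also lower genes of this set, lay between -0.18 and -0.15. Gm14685 had the smallest p-value of the lower genes at -0.68 ± 0.11, but 98.9% of its 31-base words occur in other genes, so its reads are uncertain.

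**Figure D3:**
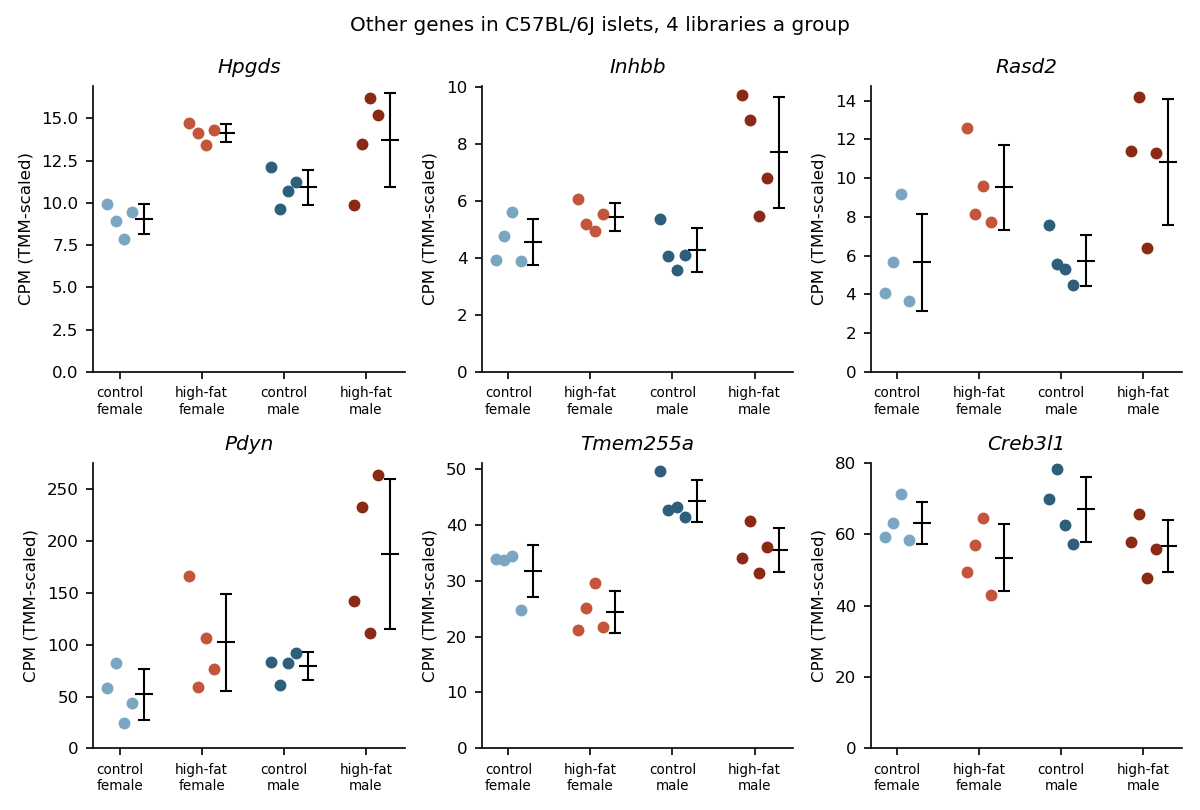
CPM of 6 genes outside the division lists (y axes, from 0) in each of the 16 libraries (points) by sex and diet, with the group mean and SD beside them. Hpgds is apart in females, Inhbb and Pdyn are apart in males, and Tmem255a and Creb3l1 are lower on the high-fat diet.

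Signals that drive beta cell growth were looked at next. Of 31 measured growth signal genes, 3 (9.68%) were higher and 1 (3.23%) lower at an unadjusted p under 0.05, against 4.65% and 2.58% of all genes, with a median of -0.03. The lower one was Igf2, whose exons overlap another annotated gene. In the fit of all 45 samples 1 was higher and 0 lower of 33, against 2.36% and 1.23% of all genes, while 58 of the 102 division genes were higher there. Irs2, the insulin receptor substrate needed for beta cell growth, measured 51.6, 64.0, 55.8 and 39.4 CPM in control and 59.4, 63.4, 57.4 and 53.2 in high-fat females. Males gave 42.8, 49.1, 66.8 and 50 against 85.0, 54.9, 73.6 and 72.2. The diets overlapped in each sex (log2 fold change 0.30 ± 0.12, edgeR adjusted p = 0.612). Irs1 was at 0.24 ± 0.08, with 30.9% of its exons under an antisense transcript, and Myc, the growth transcription factor, at 0.39 ± 0.17.

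Genes of a glucose-responsive list were also higher in part. Of 16 on the list, 5 (31.2%) were higher at an unadjusted p under 0.05, against 4.65% of all genes, and 0 lower, with a median of 0.11. By sex 5 were higher in males and 0 in females, and in the fit of all 45 samples 1 was higher for both sexes. Txnip, a glucose-induced arrestin-like protein, measured 267, 428, 362 and 380 CPM in control and 510, 430, 446 and 383 in high-fat females, and 418, 311, 454 and 381 against 426, 466, 524 and 575 in males. It overlapped in each sex (log2 fold change 0.33 ± 0.11, edgeR adjusted p = 0.555), and was higher in all 6 combinations of sex and range. Its relative Arrdc4 was at 0.36 ± 0.09, Rgs16, a regulator of G protein signals, at 0.41 ± 0.11, and Pfkfb2, which sets the pace of glycolysis, at 0.16 ± 0.06. Antisense or overlapping transcripts cover 19.4% of Txnip exons.

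The hormones themselves differed little. Ins1 had a log2 fold change of -0.01 ± 0.15, with a sign that turned without 1 of 7 libraries, Ins2 of 0.06 ± 0.18 and Iapp, the amylin gene, of -0.05 ± 0.13. Gcg was at 0.09 ± 0.23, with high-fat female 1 the highest library at 63200 CPM and a value of -0.04 without it and -0.02 without control male 1, and Sst, the somatostatin gene, at 0.12 ± 0.15. Of 20 hormone and secreted peptide genes 1 (5%) was higher and 0 lower at an unadjusted p under 0.05. The shares over all genes were 4.65% and 2.58%. The higher one was Vgf, the precursor of several neuropeptides, at 0.56 ± 0.14 (edgeR adjusted p = 0.391).

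Of 31 beta cell identity genes, 0 were higher and 1 (3.23%) lower at that p, near the 2.58% lower of all genes. In the fit of all 45 samples 0 of the 31 were lower. The lower one in the 16 samples was Mafa, the transcription factor of mature beta cells. It measured 66.5, 41.1, 56.0 and 46.0 CPM in control and 37.2, 46.1, 41.2 and 32.9 in high-fat females, and 80.5, 73.3, 42.7 and 51.5 against 68.2, 52.7, 37.0 and 51.7 in males. The diets overlapped in each sex, yet Mafa was lower in all 6 combinations of sex and range (log2 fold change -0.32 ± 0.10, edgeR adjusted p = 0.536). Cacna1c, the L-type calcium channel of insulin release, was the only one of 24 exocytosis genes at that p, at 0.19 ± 0.05. That share of 4.17% was near the 4.65% higher of all genes. Neurog3, the endocrine progenitor factor, was at -0.44 ± 0.16, in a list of 9 dedifferentiation genes with 1 lower and 1 higher.

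**Figure D4:**
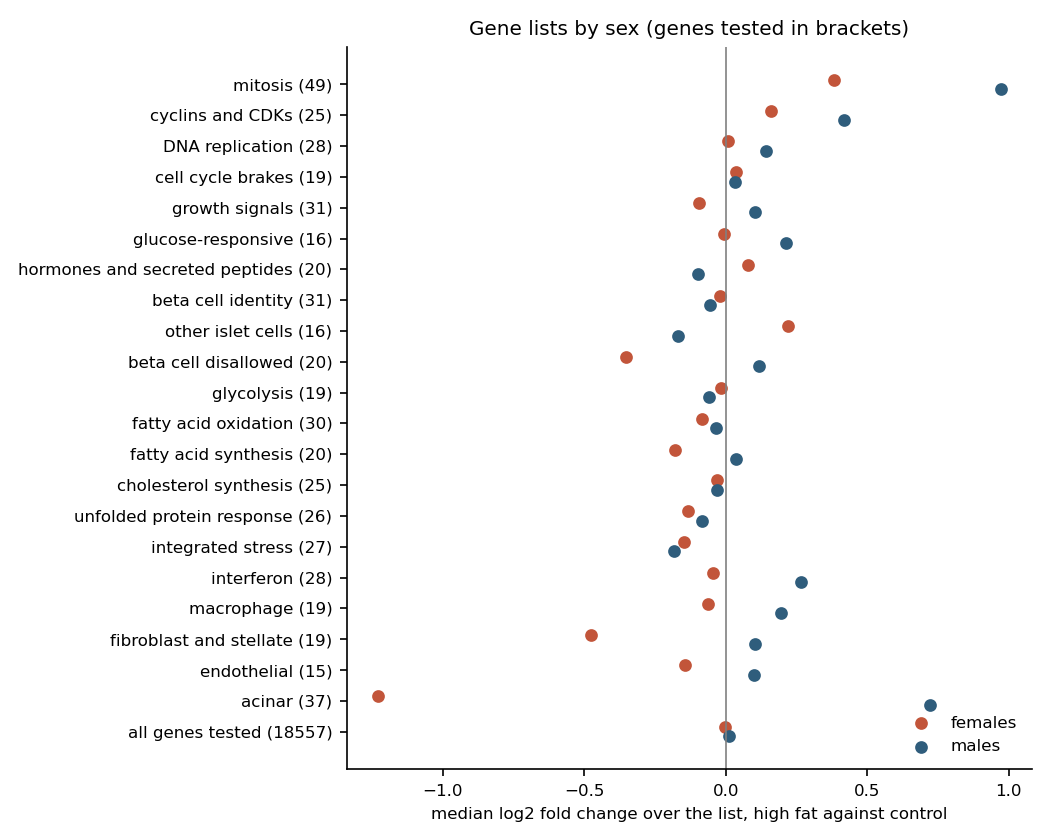
Median log2 fold change of high fat against control (x axis) over each gene list (rows, with the number of genes tested), for females and males. The mitosis list is at 0.38 in females and 0.97 in males, and the acinar list at -1.23 and 0.72. The lymphocyte list, at -0.74 and 2.09, is not drawn.

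Metabolic and stress lists had few genes at that p, most of them lower. The shares lower were 12% for cholesterol synthesis, 10% for fatty acid synthesis, 10.5% for glycolysis and 7.41% for integrated stress, against 2.58% of all genes. Of 26 unfolded protein response genes and of 20 redox genes, 0 had an unadjusted p under 0.05, with medians of -0.10 and -0.01. Of 27 integrated stress genes 2 were lower: the paired amino acid transporter subunits Slc7a5, at -0.31 ± 0.10, and Slc3a2, at -0.16 ± 0.05. Of 25 cholesterol genes 1 was higher, the sterol reductase Tm7sf2 at 0.24 ± 0.08. Lower were 3 others, among them the sterol-regulated transcription factor Srebf2 at -0.14 ± 0.06. Of 20 fatty acid synthesis genes 2 were lower, the desaturase Fads1 at -0.13 ± 0.05 and the lipogenic factor Srebf1 at -0.12 ± 0.05. Of 19 glycolysis genes 2 were lower, Pfkl, a phosphofructokinase, at -0.10 ± 0.03 and Pdk2, a kinase that inhibits pyruvate dehydrogenase, at -0.20 ± 0.08, and 1 was higher, Gapdh at 0.15 ± 0.05. Ppargc1a, a coactivator of mitochondrial genes, was at 0.42 ± 0.16, the only higher one of 30 fatty acid oxidation genes (3.33%), where 2 were lower. The clock repressor Cry1 was at -0.26 ± 0.09, the only lower one of 18 clock genes (5.56%), where 0 were higher. None of these had an edgeR adjusted p under 0.05. In the fit of all 45 samples 0 cholesterol, 0 fatty acid synthesis, 1 glycolysis and 2 integrated stress genes were lower at the unadjusted threshold. Of these lists 1 cholesterol gene was higher there. The shares over all genes in that fit were 2.36% higher and 1.23% lower.

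Several other lists had medians of opposite sign in females and males, although no gene passed the interaction test with edgeR. Of the 20 fatty acid synthesis genes 4 were lower in females at an unadjusted p under 0.05, among them Fads2 at -0.47 ± 0.15 and Fasn at -0.30 ± 0.12, and 0 were lower in males. Fasn, Krt19 and Mrc1 are named after their values were seen. Of 20 genes that beta cells keep silent 7 were lower in females, such as the hexokinase Hk2 at -0.95 ± 0.39. These shares, 20% and 35%, stand against 3.34% of all genes. The duct keratin Krt19 was at -1.78 ± 0.60 and the macrophage receptor Mrc1 at -1.03 ± 0.33 in females, where Mrc1 was at 0.85 ± 0.34 in males. The acinar list had medians of -1.23 in females and 0.72 in males, beside the acinar shares given above. Some of these female values were smaller in fits that treat acinar RNA, and Fasn was not (-0.29 and -0.41 in the 2 fits that follow). With the acinar score as a covariate Krt19 was at -1.17, Hk2 at -0.44, Mrc1 at -0.59 and Fads2 at -0.30. Without the 3 libraries over 20% acinar counts, Krt19 was at -0.72, Hk2 at -0.23 and Mrc1 at -0.62. Leaving out control female 4 alone put Hk2 at -0.46 and Mrc1 at -0.65.

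In males 6 of 19 macrophage genes (31.6%) and 8 of 12 lymphocyte genes (66.7%) were higher at an unadjusted p under 0.05, against 5.22% of all genes, including Lyz2 at 0.96 ± 0.23 and the leukocyte marker Ptprc at 1.05 ± 0.28. Lyz2 shares 32.8% of its 31-base words, mostly with Lyz1. Without high-fat male 2 the lymphocyte count was 5 of 12, the list's median was 0.88 in place of 2.09, Ptprc was at 0.49 and Lyz2 at 0.60. Without high-fat male 1, Mrc1 in males was at 0.43. B2m, a subunit of MHC class I, was at 0.23 ± 0.10 over both sexes. It was the only one of 28 interferon genes higher at an unadjusted p under 0.05 (3.57%, against 4.65% of all genes), with 0 lower. In the fit of all 45 samples 0 of the 28 were higher.

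Of the 5 genes larger in males with the smallest interaction p-values, the first, Zbed6, overlaps another annotated gene and is not described. The other 4 were Plbd1, Wdfy4, an antigen presentation gene, Icam1, a leukocyte adhesion gene, and Neurl3, a ubiquitin ligase. Plbd1, Wdfy4 and Icam1 differed between males and females by 1.33 ± 0.25, 1.47 ± 0.31 and 1.71 ± 0.34 on the log2 scale, and Neurl3 by 1.01 ± 0.19. Each had a positive value in males and a negative one in females. Among genes larger in females were Gapdh, a glycolytic enzyme (0.37 ± 0.08 in females, -0.07 ± 0.08 in males), and the imprinted gene Mest (0.54 ± 0.14 and -0.21 ± 0.14). Their adjusted p-values with edgeR were at or above 0.505, and without control female 3 Plbd1 was called.

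The same diet comparison in the other strains gave a scale for the C57BL/6J values, in a fit of all 45 samples. The division genes had a median log2 fold change of 0.40 in C57BL/6J, 1.12 in NZO/HlLtJ, an obesity-prone strain, and 0.00 in CAST/EiJ, a wild-derived strain. The NZO/HlLtJ response differed from that of C57BL/6J in 4128 genes with edgeR, 1959 higher (9.65%) and 2169 lower (10.7%). Beyond the first identifier range, NZO/HlLtJ control and high-fat libraries of each sex lay in different ranges. Diet and range were thus in part entangled in that strain. Of the 102 division genes 44 had a larger and 3 a smaller value in NZO/HlLtJ, with a median difference of 0.54. The count of 44 was 28 without NZO/HlLtJ control male 2 and 29 without NZO/HlLtJ high-fat male 3.

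The division genes with the smallest p-values for the difference from NZO/HlLtJ were not those with the smallest p-values in C57BL/6J. Mcm6 had a log2 fold change of 0.80 ± 0.10 in NZO/HlLtJ against -0.01 ± 0.09 in C57BL/6J (difference 0.81 ± 0.14, edgeR adjusted p = 0.000156). Its partner Mcm7 differed by 0.55 ± 0.11, the checkpoint protein Mad2l1 by 0.66 ± 0.11, the division proteins Racgap1 by 0.76 ± 0.14 and Kif23 by 1.42 ± 0.30, the kinase Cdk6 by 1.42 ± 0.27 and the chromatin protein Hmgb2 by 1.03 ± 0.22. Ccnd2 fell in NZO/HlLtJ by 0.66 and differed by -0.68 ± 0.14. For Kif11 the difference was 0.46 ± 0.20 (edgeR adjusted p = 0.0914) and for Top2a 0.54 ± 0.26 (edgeR adjusted p = 0.139). These sizes were near that of Mcm7, with a larger SE.

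Hpgds and Rasd2 went in opposite directions in these strains. Hpgds rose in C57BL/6J by 0.50 ± 0.10 and fell in NZO/HlLtJ by 0.65 (difference -1.15 ± 0.15, edgeR adjusted p = 9.88e-06), and Rasd2 rose by 0.84 ± 0.17 and fell by 0.63 (difference -1.47 ± 0.24, edgeR adjusted p = 0.000147). Txnip rose in NZO/HlLtJ by 1.26 ± 0.19, more than the 0.33 ± 0.17 of C57BL/6J (difference 0.93 ± 0.26, edgeR adjusted p = 0.0104).

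CAST/EiJ could be told from C57BL/6J in few genes. The diet responses differed in 3 genes with edgeR (0.0148% higher, 0% lower), namely 9930111J21Rik2, 2210418O10Rik and Gm12174, named after their values were seen, and 645 had an unadjusted p under 0.05. DESeq2 called 20. The count of 3 became 0 without any of the 3 CAST/EiJ control males, 1 without any of the CAST/EiJ control females or high-fat male 1, and 21 without CAST/EiJ high-fat female 3. Among the division genes 0 passed and 35 were lower in CAST/EiJ at an unadjusted p under 0.05, against 1.92% of all genes, with a median difference of -0.39. Kif11 stood at 0.14 ± 0.14 in CAST/EiJ, with a difference of -0.85 ± 0.19 (edgeR adjusted p = 0.212). The CAST/EiJ values average the sexes, whose group means differed in direction for Mki67, Top2a, Kif11, Ccnb2 and Cdk1. On a scale common to the 45 libraries, Mki67 averaged 11.7 ± 1.83 CPM (SD, n = 4) in control and 16.6 ± 2.19 (n = 4) in high-fat CAST/EiJ females. In CAST/EiJ males it averaged 19.8 ± 2.54 (n = 3) on the control and 15.7 ± 2.87 (n = 4) on the high-fat diet. Top2a averaged 6.68 and 10.5 CPM in these females and 12.9 and 9.95 in these males. The difference between the sexes of CAST/EiJ was not tested. Control levels of Mki67 in C57BL/6J were 6.67 ± 1.63 CPM in females and 6.04 ± 2.26 in males (n = 4 each), below those of CAST/EiJ in each sex.

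**Figure D5:**
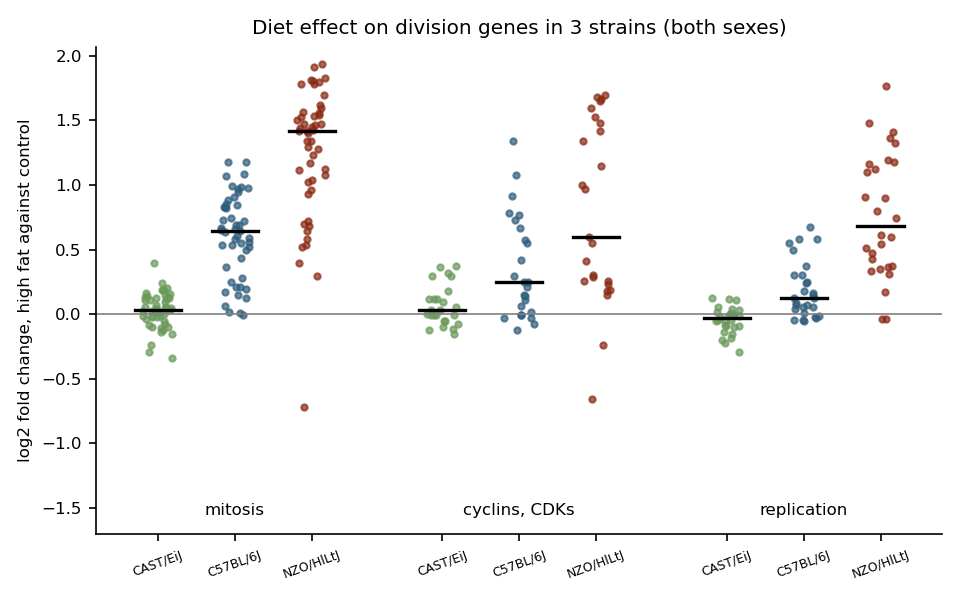
Log2 fold change of high fat against control (y axis) of each division gene (points) in CAST/EiJ, C57BL/6J and NZO/HlLtJ, with the median as a line, by list. The C57BL/6J medians lie between those of the other strains in all 3 lists, at 0.65 for mitosis against 0.03 and 1.42.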

How the data were processed

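PolyA RNA of 16 C57BL/6J islet samples, and for the strain comparison of all 45, was sequenced as 150 bp paired reads, per the labels' protocols. The authors deposited expected counts per gene for 22904 genes. The submitters' processing notes name GRCm38 and DESeq2. For the aligner, the counter and the use of strand: not given in the sources used here. Gene positions, another deposited file, were matched to GENCODE M21 for 22763 genes. Expected counts were rounded, filtered by filterByExpr (minimum count 10), scaled by TMM and tested in edgeR 4.0.16 (R 4.3.3, quasi-likelihood, Benjamini-Hochberg threshold 0.05). The design had sex by diet groups and the identifier number range. The code was tested on simulated data. Alternatives used DESeq2 1.42.0, limma 3.58.1, other scalings and filters, and left-out libraries.

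Members and the 33 gene lists were chosen with earlier results of these data known. Named genes are the 12 protein-coding genes in each direction that had the smallest p and an equal sign in both sexes, 5 each per sex and interaction (mean log2 CPM of at least 1), the members with the smallest p of each list (10 for division lists, 4 for others), a fixed set, and the 8 division genes with the smallest p in each strain contrast. Exceptions are stated, and some genes under this rule are not reported here. Replicates are numbered in accession order, which pairs no samples. Replicate libraries differed by far more than counting error (chi-square per degree of freedom at least 63.3).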

Additional observations from a re-analysis of the deposited data

Results flagged for a closer look

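In 5 of 100 groups of 4 libraries checked, 1 library lay far from the other 3 by Dixon's test at 95%, which chance gives in about 1 group in 20. High-fat male 1 had 24.9% acinar counts, 905.6 CPM of fibroblast and stellate genes and 1012 CPM of duct genes. High-fat male 2 had 79.6 CPM of lymphocyte genes. Control female 4 had 24.7 CPM of Tmem255a.

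Diet responses differed from C57BL/6J by tested interactions (edgeR) in 4128 genes in NZO/HlLtJ and in 3 in CAST/EiJ. Among the genes followed here, the log2 difference in NZO/HlLtJ was -1.15 for Hpgds, -1.47 for Rasd2, 0.81 for Mcm6, 0.66 for Mad2l1, 0.76 for Racgap1, 1.42 for Cdk6, 0.55 for Mcm7, -0.68 for Ccnd2, 1.42 for Kif23, 1.03 for Hmgb2, 0.93 for Txnip, 0.99 for Aurkb and 0.74 for Pole.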

How the results depend on the processing

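Of 82 genes named for both sexes, 77 kept their sign in the 26 alternatives (25 for Gins1, Mxd3 and Cdkn3, not tested at a minimum count of 50). The exceptions were close to 0. Leaving out 1 library at a time gave -0.0565 to 0.0133 for Mcm6, -0.0352 to 0.0111 for Cdk4, -0.0478 to 0.0551 for Ccnd2, -0.0578 to 0.0185 for Ins1 and -0.0376 to 0.2209 for Gcg. Cdk4 was also at 0.0005 with a minimum count of 50 and 0.0119 without the 3 libraries over 20% acinar counts, and Ccnd2 at -0.0002 with limma-voom. The cause was not tested. The count of called genes, 0 in each C57BL/6J comparison, became 56, 6, 84 and 67 with DESeq2 (both sexes, females, males, sex by diet), 1 and 6 with limma-voom (both sexes, males), 1 without the 3 acinar-rich libraries (both sexes), and 9 and 1 with all 45 samples in the fit (both sexes, males). Without 1 library at a time it ran from 0 to 3, 0 to 1, 0 to 2 and 0 to 1. The number of division genes higher at an unadjusted p under 0.05 ran from 48 to 63 without 1 library, and was 38 without the 3 acinar-rich libraries. The number lower ran from 0 to 1. Their median lay between 0.31 and 0.45 in the alternatives. For NZO/HlLtJ against C57BL/6J the higher division genes ran from 28 to 65 without 1 library. For CAST/EiJ the called genes ran from 0 to 21 without 1 library and were 20 with DESeq2, with 1 lower division gene. No paired analysis was possible because the labels give no replicate numbers.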
